A study of Mus musculus with 5 samples.

Results

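The mitotic G2/M crypt cells of the mouse ileum are described here: 1341 of 18955 single-cell profiles (7.07%) that carried transcripts of the machinery of cell division. A cell was counted as a member when at least 4 of 10 genes, Ube2c, Birc5, Cdc20, Top2a, Cenpa, Cenpf, Mki67, Ccnb1, Ccnb2 and Cdk1, each had at least 1 unique molecular identifier (UMI, a tag that marks 1 captured RNA molecule). The profiles came from epithelial cells of the distal small intestine of C57BL/6 mice aged 8 to 12 weeks, read with the 10x Chromium 3' droplet method. The control group was 3 libraries from mice that had sham surgery (sham 1 to sham 3), and the other group was 2 libraries from mice after small bowel resection, in which part of the small intestine is cut out (resection 1 and resection 2). No transgene or other agent is named in the labels, and they do not say how many mice or how many days after surgery a library stands for, so the spread between libraries may be partly technical. The comparison asked how the ileal epithelium differs after massive resection, here within its dividing cells.

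Cells in the crypts of the small intestine divide continually and supply the villi with absorptive and secretory cells. A dividing cell copies its DNA in S phase with helicases, polymerases and nucleotide-making enzymes. In G2 and mitosis cyclin A and cyclin B drive the kinase Cdk1, chromosomes are condensed, kinetochores attach them to the spindle, and the anaphase-promoting complex with Cdc20 and Ube2c marks cyclin B for destruction. Many genes of this late program share a promoter element, the cell cycle genes homology region (CHR), read by the MuvB core with B-Myb and FoxM1, often beside CCAAT boxes bound by NF-Y, whereas many S-phase genes carry E2F sites.

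The members numbered 67, 196 and 338 for sham 1 to sham 3 and 314 and 426 for resection 1 and resection 2, and their summed counts ranged from 518335 UMIs in sham 1 to 3767577 in resection 2. Other cells, unless stated otherwise, are the 16742 kept cells outside the members with fewer than 2 of 10 T cell marker genes detected. Members with such genes were kept. Members were deeper than other cells of the same library, with a median of 5961 to 8825 UMIs per cell against 4463 to 6019.5. The ratio lay between 1.12 and 1.68. Earlier work on these files found that the cells of sham 1 and resection 1 (set A) lie apart from those of sham 2, sham 3 and resection 2 (set B). The labels name no batch, and each set holds both groups, so values are also given inside the sets. The median mitochondrial share of members was 13.1% and 10.6% in set A and between 6.25% and 7.82% in set B. Among kept cells 190 cell barcodes occurred in more than 1 library, and 1 of them among members. The 10 T cell marker genes summed to 426, 387 and 60.8 (sham) and 127 and 350.1 (resection) CPM (UMIs of a gene scaled to a common total per library) in members. Of all members, 72 had at least 2 of these genes, and 1258 had no count of Cd3d, Cd3e or Cd3g, which encode chains of the T cell receptor complex. The 11 stromal, endothelial and B cell markers summed to at most 13.5 CPM in the members of any library, and 6 of them were at 0 in every library's members.

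The rule selected cells on the 10 genes, so their levels are a description. Ube2c (ENSMUSG00000001403), the ubiquitin-conjugating enzyme of the anaphase-promoting complex, was detected in 79.1 to 83.7% of members per library and in 2.25 to 4.02% of other cells. Its level in members was 286, 464 and 417 CPM for sham 1 to sham 3 and 322 and 413 CPM for resection 1 and resection 2. The 5 libraries overlapped between groups, and sham 1 was the lowest. Ccnb1 (ENSMUSG00000041431), which encodes cyclin B1, was the least often detected rule gene, in 28.4 to 49.4% of members. Birc5, the survivin subunit of the chromosomal passenger complex, stood at 226, 373 and 352 CPM (sham) and 269.8 and 326 CPM (resection), Top2a, which untangles DNA, at 282, 241 and 237 CPM (sham) and 278 and 283 CPM (resection) and Mki67, a coat protein of mitotic chromosomes, at 313, 187 and 196 CPM (sham) and 296 and 199.6 CPM (resection). Sham 1 had the lowest Birc5 and the highest Mki67, so the members of that library were not low in every rule gene. Cdc20, the activator of the anaphase-promoting complex, stood at 177, 275 and 162 CPM (sham) and 185 and 169 CPM (resection) and was highest in sham 2, and the Cdk1 kinase itself at 81.03, 152 and 137 CPM (sham) and 115 and 140.1 CPM (resection).

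Promoters of this program are shown as a description. Joint detection of rule genes in members was required by the rule, so it is not a finding. RefSeq promoters on the build GRCm38.p6, from 250 bases before to 50 bases after each start site, were searched on both strands for the CHR (TTTGAA), the CCAAT box (CCAAT) and E2F sites (TTTGGCGC, TTTCCCGC, TTTGCCGC or TTTCGCGC). The 100 bases directly before the start site are printed on the gene's own strand, with CHR, CCAAT and E2F matches of either strand in capitals, for 4 rule genes and the leading gene Hmgb2.
Ube2c (chr2:164769829-164769928, plus strand): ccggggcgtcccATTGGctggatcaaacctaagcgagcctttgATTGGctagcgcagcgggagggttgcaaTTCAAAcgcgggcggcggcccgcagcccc
Cdc20 (chr4:118437344-118437443, minus strand): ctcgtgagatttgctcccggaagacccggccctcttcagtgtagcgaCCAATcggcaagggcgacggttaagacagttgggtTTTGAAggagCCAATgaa
Top2a (chr11:99024190-99024289, minus strand): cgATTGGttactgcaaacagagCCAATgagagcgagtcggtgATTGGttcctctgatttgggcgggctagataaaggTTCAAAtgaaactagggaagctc
Cdk1 (chr10:69352913-69353012, minus strand): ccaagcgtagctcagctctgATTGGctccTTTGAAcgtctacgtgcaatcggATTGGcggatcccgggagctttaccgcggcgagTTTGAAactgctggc
Hmgb2 (chr8:57511743-57511842, plus strand): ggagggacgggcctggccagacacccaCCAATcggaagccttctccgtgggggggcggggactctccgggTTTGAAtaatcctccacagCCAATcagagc
Mcm5 and Mcm6, subunits of the replicative helicase, and Hells, a chromatin remodeller of the helicase family, are S-phase genes and are given for contrast.
Mcm5 (chr8:75109409-75109508, plus strand): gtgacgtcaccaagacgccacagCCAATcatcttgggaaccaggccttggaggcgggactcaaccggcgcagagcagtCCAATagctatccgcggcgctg
Mcm6 (chr1:128359706-128359805, minus strand): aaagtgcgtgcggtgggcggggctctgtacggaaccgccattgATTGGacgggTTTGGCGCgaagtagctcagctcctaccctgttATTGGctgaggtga
Hells (chr19:38930890-38930989, plus strand): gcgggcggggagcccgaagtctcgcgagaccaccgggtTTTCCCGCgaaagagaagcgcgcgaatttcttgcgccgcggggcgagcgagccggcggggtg
In the mitotic set the CHR began at -29 from the start site in Ube2c, -18 in Cdc20, -23 in Top2a, -71 and -15 in Cdk1 and -30 in Hmgb2. Each of the 5 windows also held at least 2 CCAAT boxes. In their printed windows Mcm6 and Hells had an E2F word, at -47 and -62, and Mcm5 had none. None of these 3 windows held a CHR, and Mcm5 and Mcm6 each held 2 CCAAT boxes, as mitotic windows did. Upstream of the printed bases, E2F words began at -131 in Cdk1, -153 and -149 in Mcm5 and -110 and -106 in Mcm6. In Mcm5 and Mcm6 the words of the pair overlapped on opposite strands, so each pair marks a single site. Another CHR began upstream of the printed bases at -179 in Top2a and -218 in Hmgb2. The printed genes do not stand for every rule gene. Ccnb1 and Birc5 had no CHR in the 300 bases searched, and in Cenpa and Cenpf it began only after the start site, at 17 and 3. Over the whole 300-base promoters, the CHR was present in 80% of the 10 rule gene promoters, in 68.6% of 51 promoters of other kinase, spindle and kinetochore genes (47 of 60 genes matched) and in 53.3% of 15 promoters of the 20 leading genes below (14 matched). It was present in 12.1% of 33 promoters of S-phase genes (28 of 37 matched) and in 17.9% of all 32851 promoters. The CCAAT box occurred in 90% of rule gene promoters, 57.6% of S-phase promoters and 37.4% of all. E2F words were found in 10%, 36.4% and 2.26% of these. A match describes the letters in the window and not binding.

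Cells were not split cleanly by the rule. Of all kept cells, 14398 had none of the 10 genes, 269 had 3 and lay just outside, 224 had 4 and lay just inside, and 154 had all 10. Transcripts of 3 lists of mitosis genes that the rule did not use (kinases, spindle and kinesins, kinetochore and passenger proteins) made up 1.06 of every 10000 UMIs in cells with no rule gene, 8.18 with 3, 11.96 with 4 and 33.1 with 10. S-phase transcripts peaked in the middle of the range, at 17.7 per 10000 with 6 rule genes, against 13.5 with 3 and 12.5 with 10. Transcripts of mature enterocyte genes went the other way, from 690.3 per 10000 with no rule gene to 165 with 4 and 104 with 10. Depth moved with the count of rule genes, from a median of 5976 UMIs with 4 to 10372 with 10, and its part in these gradients was not tested.

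**Figure D1:**
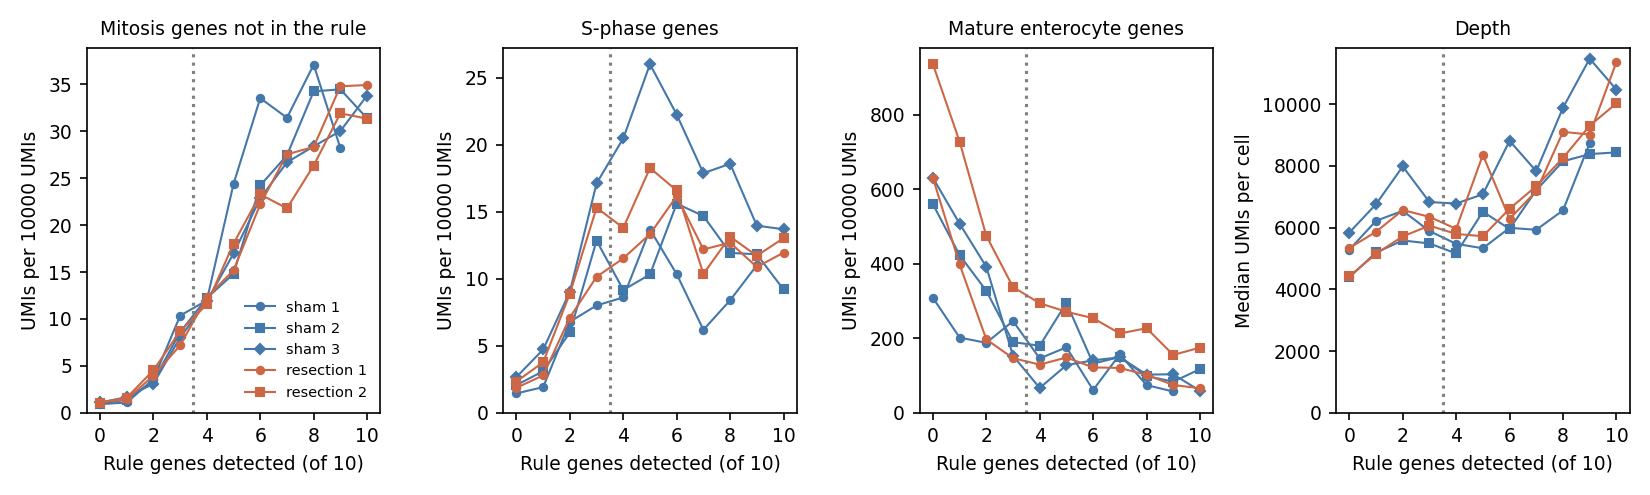
Transcripts per 10000 UMIs of mitosis genes outside the rule, S-phase genes and mature enterocyte genes, and the median UMIs per cell, plotted against the number of the 10 rule genes detected; each line is 1 library (blue sham, orange resection; points with under 5 cells left out) and the dotted line is the rule's threshold. In all 5 libraries the mitosis genes climb and the enterocyte genes drop across the threshold, while S-phase transcripts are highest at intermediate counts.

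The label was checked with mitosis genes that the rule did not use, although genes of the same program are not independent of it, so no test is given. Of 13 measured mitotic kinase genes, 11 were higher in members than in other cells by at least 1 on the log2(CPM + 10) scale (median over libraries), as were 22 of 25 spindle and kinesin genes and 21 of 25 kinetochore and passenger genes. Over all 17511 genes with a UMI in either class, 6.02% were higher by that much and 2.12% lower. On this scale a gene under 10 CPM in members cannot be higher by 1, so sparse genes hold the background down. The 3 lists held fewer such genes, with 9 kinase, 20 spindle and 16 kinetochore genes at a mean of 20 CPM or more in members. Plk1, the kinase that drives mitotic entry and spindle assembly, stood at 40.5, 52.6 and 45.1 CPM for sham 1 to sham 3 and 52.7 and 52.6 CPM for resection 1 and resection 2, with a median of 0.766 in other cells. The 5 libraries lay close together. Aurka, the kinase of the spindle poles, stood at 57.9, 73.1 and 66.5 CPM (sham) and 48.3 and 56.00 CPM (resection) against 1.60, and Aurkb, the kinase of the passenger complex, at 40.5, 51.3 and 50.8 CPM (sham) and 41.9 and 43.5 CPM (resection) against 0.553. Aurka in resection 1 was the lowest of the 5, without a gap to the rest.

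Among the spindle genes, Nusap1, which bundles microtubules at chromosomes, stood at 81.03, 96.8 and 79.1 CPM (sham) and 87.2 and 90.8 CPM (resection) in members and at 1.12 in other cells. Kif11, the motor that pushes spindle poles apart, had 67.5, 66.7 and 56.2 CPM (sham) and 76.1 and 51.2 CPM (resection) against 1.01. For Tpx2, which activates Aurora A on the spindle, the values were 54.02, 60.3 and 53.4 CPM (sham) and 48.7 and 56.5 CPM (resection) against 0.851. Each of these genes was higher in members in 5 of 5 libraries. Cenpe, a kinetochore motor, stood at 131, 106 and 109 CPM (sham) and 112 and 88.7 CPM (resection) against 2.07, and Cdca8, the borealin subunit of the passenger complex, at 102, 163 and 137 CPM (sham) and 118 and 153 CPM (resection) against 9.53. The checkpoint gene Bub1b had 44.4, 35.9 and 36.8 CPM (sham) and 40.6 and 31.9 CPM (resection) against 0.851. Sham 1, with 67 members, had the highest Cenpe and the lowest Cdca8.

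Of 17 condensin and cohesin genes, 14 were higher by at least 1. Smc4, a condensin subunit, stood at 147, 185 and 193 CPM (sham) and 178 and 167 CPM (resection) against 14.5 in other cells. Smc1a, the cohesin subunit that holds sister chromatids together, had 94.5, 105 and 96.2 CPM (sham) and 125 and 111 CPM (resection) against 25.2. Espl1, the separase that cuts cohesin at anaphase, had 17.4, 18.6 and 10.3 CPM (sham) and 19.6 and 12.5 CPM (resection) against 0.233. All 3 were higher in members in 5 of 5 libraries. Among 16 genes of the anaphase-promoting complex and its partners, 5 were higher by at least 1. Ube2s, which extends the ubiquitin chains, stood at 293, 305 and 437 CPM (sham) and 308 and 337 CPM (resection) against 53.1, whereas the core subunit Anapc13 had 332, 453 and 389.98 CPM (sham) and 394 and 411 CPM (resection) against 271.

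The 20 leading genes, which had the largest difference from other cells outside the rule at 50 CPM or more in every library, were Hmgb2, Cdca3, 2810417H13Rik, Tuba1b, Ccna2, Stmn1, Cenpe, Tubb5, Spc24, Ptma, Ccdc34, Nusap1, Smc2, Cks1b, Smc4, Lockd, Cdca8, Tmpo, H2afx and Cks2. Their median log2 differences ran from 3.89 down to 2.83, and each was higher in members in 5 of 5 libraries. These differences are from other cells as a whole, and some were small against the S-phase-like cells outside the members, defined below. Median Ptma was 3584 CPM there and 3399 in members, Stmn1 492 and 507, and Tubb5 255 and 302. Every leading gene but Ptma had the higher median in members, with wide gaps for Hmgb2 (385 and 1269), Cdca3 (28.9 and 184) and Cenpe (12.9 and 109). Hmgb2 (ENSMUSG00000054717), a chromatin protein that bends DNA, stood at 988, 1493 and 1427 CPM for sham 1 to sham 3 and 1269 and 1019 CPM for resection 1 and resection 2, against 50.03 to 89.3 in other cells. It was detected in 96.9 to 99.7% of members and in 22.5 to 36.1% of other cells. Members of the 2 groups overlapped. Ccna2, cyclin A2, which acts in S phase and G2, stood at 150.5, 126 and 112 CPM (sham) and 160.3 and 113 CPM (resection) against 2.54. Tuba1b, a spindle tubulin, had 677, 639 and 747 CPM (sham) and 615 and 628 CPM (resection) against 48.6, and Stmn1, the stathmin that destabilises microtubules, 268, 507 and 640.4 CPM (sham) and 355 and 544 CPM (resection) against 32.7. Sham 1 and resection 1, the libraries of set A, had the lowest Stmn1 and also the lowest Cks2, a Cdk1-binding subunit, at 185, 403 and 428 CPM (sham) and 232 and 331 CPM (resection). Lockd, a long non-coding RNA beside Cdkn1b, stood at 86.8, 110.3 and 90.8 CPM (sham) and 85.9 and 90.2 CPM (resection) against 3.20.

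Members overlapped with S phase. A cell was called S-phase-like when it had at least 4 of 10 replication genes (Mcm3, Mcm5, Mcm6, Pcna, Hells, Dut, Lig1, Tyms, Gins2 and Rrm2), and 491 of 1341 members (36.6%) met this as well. Another 424 cells were S-phase-like without being members, and by construction they had fewer than 4 rule genes. The share of members with S-phase genes was 23.9% (exact 95% interval 14.3 to 35.9), 23.98% (18.2 to 30.6) and 55.6% (50.1 to 61.00) in sham 1 to sham 3. It was 30.6% (25.5 to 35.99) and 33.8% (29.3 to 38.5) in resection 1 and 2. Both resection libraries lay between sham 3 and the other sham libraries. Sham averaged 34.5 ± 18.3% (SD, n = 3), and resection averaged 32.2 ± 2.28% (SD, n = 2), with exact two-sided permutation p = 1. Without sham 3 the difference of -2.31 points became 8.26 points. Among all kept cells outside the members, T cell droplets included, the S-phase-like share was 1.38 to 5.02%. When each cell was thinned to 2000 UMIs, 583 members were left. The share of these members with S-phase genes was then 0, 2.94 and 7.35% (sham) and 1.64 and 4.10% (resection). Sham 3 stayed the highest library, and its members were also the deepest (median 8825 UMIs).

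Genes outside both rules were compared between these classes as a description. Ccne1, cyclin E1, which starts DNA replication, had a median over libraries of 20.99, 17.1 and 1.78 CPM in S-phase-like cells outside the members, members with S-phase genes and members without them. Its partner cyclin Ccne2 followed the same order at 26.8, 14.7 and 1.79 CPM, as did the transcription factor E2f1 at 31.8, 16.6 and 0.895 and the replication licensing factor Cdt1 at 72.9, 28.97 and 3.58. Late genes had the opposite order between the first and the last class. Plk1 had 3.21, 46.9 and 53.1 CPM, Cdkn3, a phosphatase that acts on cyclin-dependent kinases, 3.21, 40.9 and 62.99 and Cdc25b, a phosphatase that activates Cdk1, 2.18, 20.4 and 38.5. Foxm1, the factor that switches on late cell cycle genes, was near 0 in S-phase-like cells and present in both member classes, at 0.875, 17.2 and 12.2 CPM. Cyclin D1 (Ccnd1, which acts from G1) differed little, at 287, 283 and 216 CPM, against 57.2 in other cells. Within members, those with 8 to 10 rule genes had a median Cdc25b of 48.6 CPM against 8.86 in those with 4 or 5. They had less Cdt1 (8.40 against 28.8) and Ccne2 (3.23 against 9.83). These 2 genes do not stand for S-phase genes as a whole. The sum over the list of 37 S-phase genes differed little, at a median of 1190 CPM (range 965 to 1537) against 1241 (980 to 2278). The T cell markers differed between the member classes as well, with a median sum of 275 CPM (range 79.3 to 1605) in those with S-phase genes and 58.2 (32.9 to 448) in those without, and their part was not tested.

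**Figure D2:**
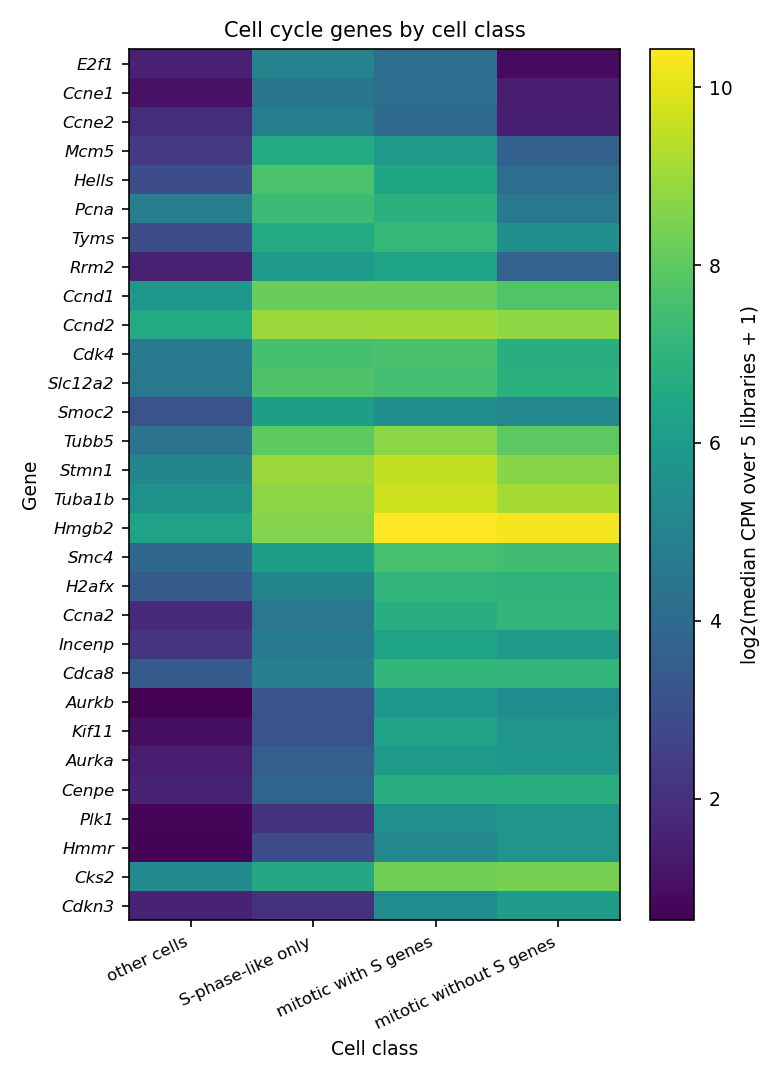
Median level over the 5 libraries, as log2(CPM + 1), of 30 cell cycle genes (rows) in 4 cell classes (columns); colours are to be read along a row, since counts per gene are not adjusted for length. Replication genes at the top are brightest in S-phase-like cells and dim in members without S-phase genes, for example Ccne1 at 21.0 and 1.78 CPM. Among them Mcm5, Hells, Pcna, Tyms and Rrm2 help to define these classes, so their order was set by the rule and is not a finding. Mitotic genes at the bottom have the opposite order, for example Plk1 at 3.21 and 53.1 CPM.

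Brakes of the cycle were split. Of 16 genes for inhibitors of cyclin-dependent kinases and related brakes, 3 were higher in members by at least 1 and 3 lower. Cdkn1a, which encodes p21 and halts the cycle, stood at 84.9, 129 and 79.4 CPM for sham 1 to sham 3 and 60.5 and 87.3 CPM for resection 1 and resection 2 in members, against a median of 228 in other cells. Cdkn2b (p15) had 82.96, 108 and 83.6 CPM (sham) and 91.3 and 106 CPM (resection) against 249.6, and the antiproliferative gene Btg2 75.2, 68.6 and 49.4 CPM (sham) and 95.7 and 48.6 CPM (resection) against 168. All 3 were lower in members in 5 of 5 libraries. Cdkn3 stood higher in members in 5 of 5, at 34.7, 75.04 and 53.7 CPM (sham) and 44.6 and 58.9 CPM (resection) against 2.07, and Cdkn2d (p19) had 9.65, 39.1 and 23.4 CPM (sham) and 18.9 and 29.5 CPM (resection) against 4.09.

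Of 26 stem cell and Wnt pathway genes, which are known from the crypt base, 8 were higher in members by at least 1. Their sum was not highest in members, with a median of 681 CPM (range 557 to 760) against 201 in other cells. In S-phase-like cells outside the members it was 915 CPM (845 to 1261). Slc12a2, a chloride cotransporter of crypt cells, stood at 147, 119.9 and 161 CPM (sham) and 154 and 122 CPM (resection) against 23.4 in other cells. Smoc2, a matrix protein gene of crypt base cells, had 36.7, 31.4 and 42.8 CPM (sham) and 43.3 and 39.5 CPM (resection) against 7.83, and Axin2, a target of Wnt signals, 46.3, 35.9 and 31.1 CPM (sham) and 37.2 and 30.5 CPM (resection) against 11.96. Each was higher in members in 5 of 5 libraries. Lgr5, the receptor that defines crypt base stem cells, was sparse at 7.72, 7.06 and 3.997 CPM (sham) and 5.75 and 7.96 CPM (resection) against 1.63. All 10 Paneth cell genes and 14 of 15 mature enterocyte genes were lower in members by at least 1. None of 10 goblet cell genes was higher by that much and 2 were lower. The 8 epithelial markers summed to 12409 to 14807 CPM in members and 11432 to 17209 in other cells, so both classes carried the epithelial label's markers.

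Goblet cells make the mucus of the intestine, and their transcripts were counted in members as a measure of lineage. The share of members with at least 3 of 10 goblet genes was 73.1, 80.1 and 60.9% for sham 1 to sham 3 and 57.96 and 57.7% for resection 1 and resection 2. In other cells it was 68.5, 65.98 and 43.2% (sham) and 38.1 and 41.8% (resection). At each cell's own depth both resection libraries lay below every sham library, in members and in other cells alike. In members sham averaged 71.4 ± 9.70% (SD, n = 3) and resection 57.9 ± 0.152% (SD, n = 2), and resection minus sham was -13.5 points. An exact permutation test (two-sided) had p = 0.2, the smallest possible with 3 libraries against 2, and 1 after adjustment over 5 such tests. At 2000 UMIs per cell the shares shrank to 21.4, 28.4 and 11.8% (sham) and 10.7 and 15.4% (resection) of members and 30.1, 32.2 and 14.1% (sham) and 12.3 and 16.7% (resection) of other cells. Members here were the 583 cells that still met the rule, and former members that did not counted as other cells, T cell droplets aside. Members were then below other cells in 5 of 5 libraries, the reverse of the unthinned order. The 2 orders therefore compare different sets of cells. Resection 2 was then above sham 3 in both classes, so the groups overlapped at equal depth. The part of free RNA in these shares was not tested.

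The share of mitotic cells overlapped between the groups. It was 5.17% (67 of 1296 cells, exact 95% interval 4.03 to 6.52), 5.01% (196 of 3914, 4.35 to 5.74) and 11.9% (338 of 2848, 10.7 to 13.1) in sham 1 to sham 3. In resection 1 and 2 it was 8.28% (314 of 3792, 7.42 to 9.20) and 5.996% (426 of 7105, 5.45 to 6.57). Sham 3 was the highest library and the other sham libraries the lowest, with both resection libraries between them. Sham averaged 7.35 ± 3.91% (SD, n = 3) and resection 7.14 ± 1.62% (SD, n = 2), and resection minus sham was -0.21 points (exact two-sided permutation p = 1; the test cannot go below 0.2). Set A alone gave 3.11 points and set B alone -2.44, and without sham 3 it was 2.05 points. At most 10% mitochondrial UMIs per cell gave 3.45 points, with 6 members of 272 cells left in sham 1.

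**Figure D3:**
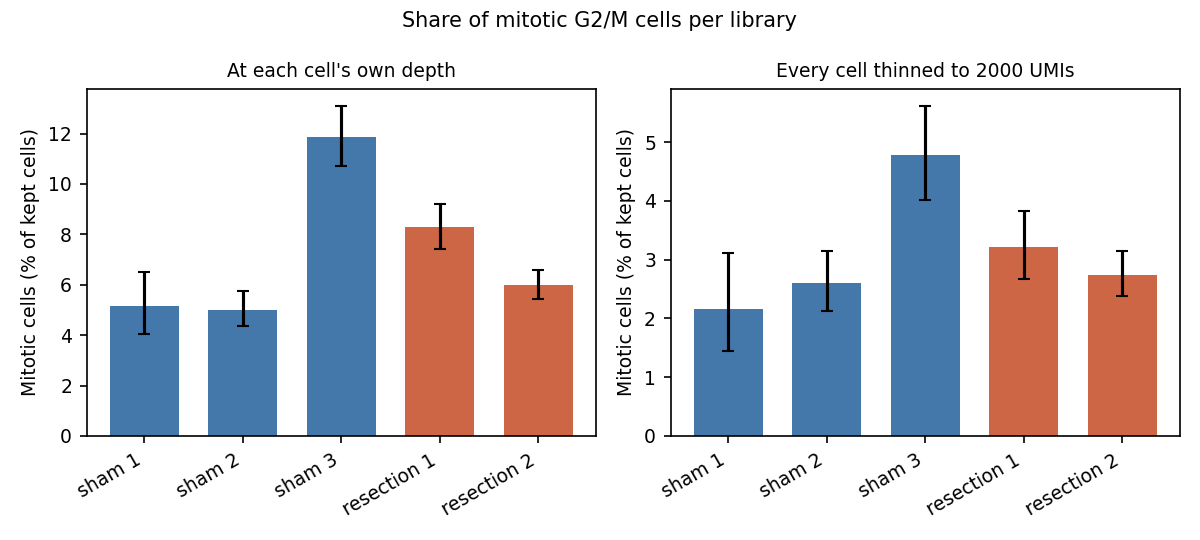
Mitotic cells as a percent of kept cells in each library (blue sham, orange resection; bars start at 0, error bars are exact 95% binomial intervals for counting error only), at each cell's own depth and after thinning every cell to 2000 UMIs. Sham 3 is the highest library in both panels, at 11.9% and 4.78%, and the resection libraries lie between it and the other sham libraries.

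Every kept cell had at least 2354 UMIs, so none was left out when cells were thinned to 2000 UMIs, which gave 2.16, 2.61 and 4.78% (sham) and 3.22 and 2.74% (resection). Of the members, 43.5% still met the rule, and the same library was highest. Set against cells in S phase, members numbered 2.03, 1.94 and 1.08 (sham) and 1.89 and 1.42 (resection) for each S-phase-like cell. As a log2 ratio this averaged 0.69 ± 0.51 over 3 sham libraries and 0.71 ± 0.30 over 2 resection libraries (SD; exact two-sided permutation p = 1). Sham 3 had the lowest ratio as well as the highest share. The labels do not say how many crypts each library holds, so more dividing cells and fewer captured villus cells cannot be told apart.

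Expression inside the members was compared between groups on counts summed per library. edgeR's quasi-likelihood test called none of 9924 genes at an adjusted p under 0.05 (0% called; lowest adjusted p 0.9999), and 151 genes (1.52%) had an unadjusted p under 0.05, 93 of them higher after resection (0.937%) and 58 lower (0.584%). DESeq2 called 3 genes (0.0302%), Apoa4, Apoc3 and Lct, each higher after resection. Both resection libraries lay above the sham range in 659 genes (6.64%) and below it in 464 (4.68%). The median log2 fold change over all genes tested was -0.0071. Standard errors here are approximate, the absolute log2 fold change divided by the square root of edgeR's F statistic. For genes of at least 20 CPM their median was 0.32, so a difference of that size was not detectable with 5 libraries.

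No gene of the division machinery passed the edgeR test. Log2 fold changes (resection over sham) are given ± their approximate standard error. No rule gene lay outside the sham range; this group was chosen by the rule and its log2 fold changes, from -0.27 to 0.13, are a description. Of 13 mitotic kinases 6 were above 0 and 7 below (median -0.026), of 24 spindle genes 10 above and 14 below (-0.043), and of 17 condensin and cohesin genes 11 above and 6 below (0.031). The 25 kinetochore genes had 5 above and 20 below 0 (median -0.096), with 4 below the sham range, or 16% against the background of 4.68%. None of them had an unadjusted p under 0.05. Sgol1, the shugoshin that protects centromeric cohesin, was one of the 4, at 32.97, 43.6 and 32.2 TMM-scaled CPM for sham 1 to sham 3 and 29.5 and 26.6 for resection 1 and resection 2 (log2 fold change -0.37 ± 0.27). The groups did not overlap for Sgol1, with sham 3 and resection 1 close to each other. Plk1 stood at 36.4, 57.6 and 47.1 TMM-scaled CPM (sham) and 46.99 and 57.3 (resection, log2 fold change 0.12 ± 0.29), Aurka at 52.1, 80.1 and 69.5 (sham) and 43.1 and 61.04 (resection, -0.39 ± 0.31) and Ccna2 at 135, 138 and 117 (sham) and 143 and 123 (resection, 0.036 ± 0.28). Each of the 3 had overlapping groups and an edgeR adjusted p of 0.9999.

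Genes that govern entry to the cycle did not pass the test either. Ccnd1 stood at 278, 199 and 268 TMM-scaled CPM (sham) and 296 and 207 (resection), a log2 fold change of 0.022 ± 0.33. Of 16 cyclins, kinases and their subunits, 3 were above 0 and 13 below, with a median of -0.24, 0.018 inside set A and -0.16 inside set B. None lay outside the sham range. Cdk4, the partner of cyclin D, had 60.7, 162 and 219 TMM-scaled CPM (sham) and 74.1 and 155 (resection, log2 fold change -0.39 ± 0.52), with sham 1 and resection 1 both far below the other libraries. Cdkn1a was at 76.4, 141 and 82.9 TMM-scaled CPM (sham) and 53.9 and 95.2 (resection, log2 fold change -0.43 ± 0.38). Myc, a growth regulator, had 17.4, 15.5 and 19.4 TMM-scaled CPM (sham) and 13.3 and 9.84 (resection, log2 fold change -0.61 ± 0.30), and both resection libraries lay below the sham range, with an edgeR unadjusted p of 0.0772. Of 37 S-phase genes 11 were above 0 and 26 below, with a median of -0.11 (0.22 for set A, -0.017 for set B). Uhrf1, a partner of the maintenance DNA methyltransferase, had 19.1, 16.9 and 36.4 TMM-scaled CPM (sham) and 37.05 and 27.8 (resection, log2 fold change 0.34 ± 0.36). Rrm2, a subunit of the enzyme that makes deoxynucleotides, had 27.8, 32.3 and 59.4 TMM-scaled CPM (sham) and 35.8 and 29.8 (resection, log2 fold change -0.35 ± 0.35). Of 21 stem and Wnt genes 13 were above and 8 below 0 (median 0.076), and Lgr5 stood at 6.94, 7.73 and 4.18 TMM-scaled CPM (sham) and 5.12 and 8.68 (resection, log2 fold change 0.26 ± 0.46). Olfm4, another crypt base gene, was at 0, 4.92 and 6.86 TMM-scaled CPM (sham) and 6.63 and 9.55 (resection) and thus near the edge of detection.

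Of the genes in each list with a mean of at least 20 CPM, those with the lowest p that are not described elsewhere are given next, and each had an edgeR adjusted p of 0.9999. Pbk, a mitotic kinase gene, stood at 48.6, 78.7 and 98.2 TMM-scaled CPM (sham) and 44.3 and 71.2 (resection, log2 fold change -0.41 ± 0.36). Kifc1 and Kif4, spindle motors, had log2 fold changes of 0.33 and 0.25. Sgol2a, the second shugoshin, had 24.3, 21.8 and 24.2 TMM-scaled CPM (sham) and 14.5 and 20.8 (resection, log2 fold change -0.40 ± 0.29), and both resection libraries lay below the sham range as for Sgol1. Stag2, a cohesin subunit, had 90.2, 54.1 and 46.8 TMM-scaled CPM (sham) and 48.5 and 44.8 (resection, log2 fold change -0.40 ± 0.33), and sham 1 stood apart from the other 4 libraries. For the anaphase-promoting complex subunits Anapc7 and Anapc2 the log2 fold changes were 0.30 and -0.25. Tfdp2, a partner of E2F factors, had 31.2, 36.5 and 37.3 TMM-scaled CPM (sham) and 43.7 and 42.5 (resection, log2 fold change 0.28 ± 0.25), and Nfyb, a subunit of the factor that binds CCAAT boxes, 24.3, 40.1 and 43.9 (sham) and 27.4 and 28.1 (resection, -0.44 ± 0.30). Sham and resection did not overlap for Tfdp2, and they did for Nfyb. Mybl2, which encodes B-Myb, lay under the mean of 20 CPM and is named because of the values it showed. It stood at 12.1, 12.6 and 17.9 TMM-scaled CPM (sham) and 8.74 and 8.68 (resection, log2 fold change -0.78 ± 0.32, edgeR unadjusted p 0.0406, adjusted p 0.9999), with both resection libraries below the sham range. The kinase Cdk6 and the retinoblastoma gene Rb1 had log2 fold changes of -0.31 and -0.32.

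Hes1, the Notch target that keeps crypt cells from a secretory fate, stood at 207, 183 and 137 TMM-scaled CPM (sham) and 155 and 89.97 (resection, log2 fold change -0.51 ± 0.35), with resection 2 the lowest library and resection 1 inside the sham range. In plain CPM Hes1 was higher in members than in other cells in 5 of 5 libraries, with a median of 43.6 in other cells. Klf4, a factor of differentiated villus cells, had the opposite order, at 67.5, 71.2 and 42.8 CPM (sham) and 74.7 and 58.1 CPM (resection) in members against 149. The keratin gene Krt7 had 71.1, 103 and 135 TMM-scaled CPM (sham) and 51.2 and 87.4 (resection, log2 fold change -0.59 ± 0.37). Prom1 and Sox9, both crypt genes, had log2 fold changes of 0.28 and -0.26. Insr, the insulin receptor, stood at 24.3, 11.9 and 14.02 TMM-scaled CPM (sham) and 26.8 and 23.1 (resection, log2 fold change 0.69 ± 0.33, edgeR unadjusted p 0.0655), with sham 1 above resection 2. Sesn1 and Mdm2, targets of p53, had 0.39 and 0.31, and the chromatin genes Hmgn2 and Ezh2 -0.43 and 0.36. Hmgb2, the leading gene, had 888, 1635 and 1492 TMM-scaled CPM (sham) and 1130.4 and 1111 (resection, log2 fold change -0.26 ± 0.39), and its groups overlapped.

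**Figure D4:**
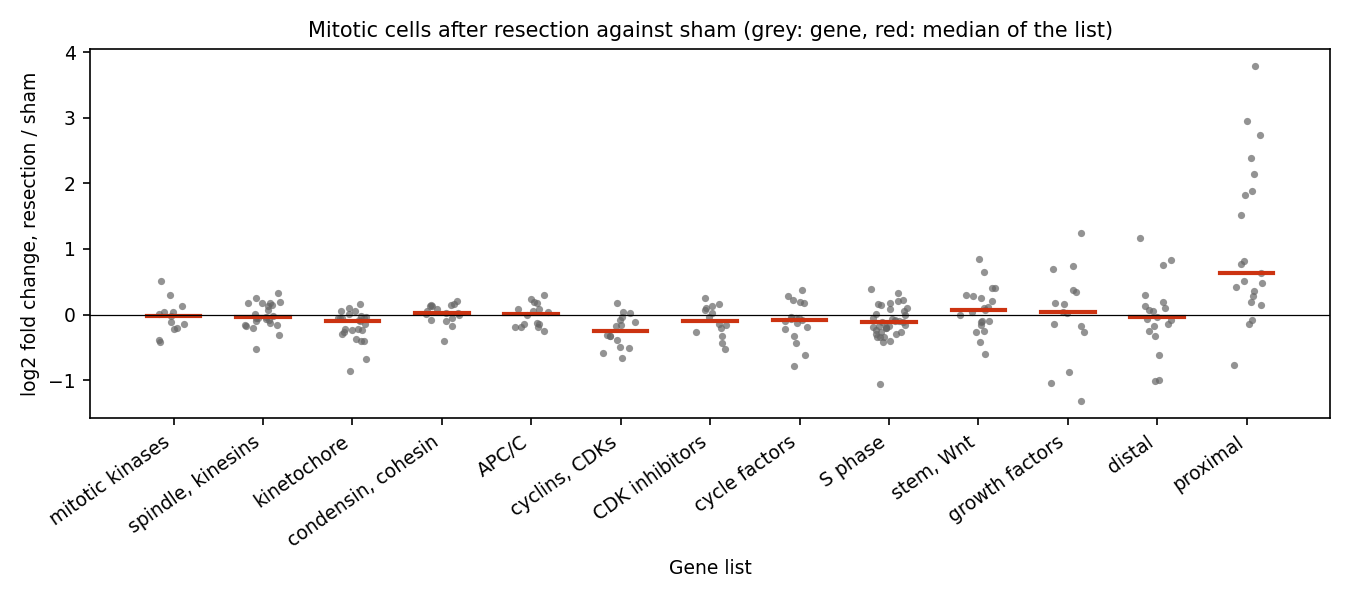
log2 fold change (resection over sham, edgeR) in mitotic cells for each tested gene of 13 lists (grey points, spread sideways for legibility) with the median of the list (red bar). The medians of the cell cycle lists lie between -0.24 and 0.031, and the median of the proximal list is at 0.63, with single genes up to 3.79.

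The proximal small intestine, which takes up most fat and sugar, has its own enterocyte genes, and levels of many of them in members were above the sham range after resection, though edgeR called none. Of 21 tested genes of a proximal list, 18 had a log2 fold change above 0, 11 (52.4%) had both resection libraries above the sham range against 6.64% of all genes, and 10 had an unadjusted p under 0.05. The list's median log2 fold change was 0.63, against -0.0071 for all genes. Set A gave a median of 0.39, set B 0.74, and other cells 1.07. This shift in the epithelium as a whole was known from the same libraries when the list was chosen, so it is no independent evidence. Apoa4 (ENSMUSG00000032080), an apolipoprotein of fat-absorbing enterocytes, stood at 163, 207 and 40.3 TMM-scaled CPM for sham 1 to sham 3 and 1293 and 789.8 for resection 1 and resection 2, a log2 fold change of 2.94 ± 0.61. Its groups did not overlap, and the edgeR adjusted p was 0.9999, against 5.57e-04 with DESeq2; over 16 alternatives it ran from 9.28e-05 to 1. Apoc3, another apolipoprotein, had 60.7, 104 and 33.1 TMM-scaled CPM (sham) and 258 and 321 (resection, log2 fold change 2.14 ± 0.45; DESeq2 adjusted p 0.0152, 2.06e-04 to 1 over the alternatives). Lct, the lactase of the brush border, had 12.1, 16.9 and 5.67 TMM-scaled CPM (sham) and 56.9 and 54.4 (resection, log2 fold change 2.39 ± 0.41; DESeq2 adjusted p 0.0152, 0.0039 to 1). Sham 3 was the lowest library for all 3.

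Other genes of the proximal list also lay above the sham range. Fabp1, the liver-type fatty acid binding protein, stood at 43.4, 94.2 and 240.5 TMM-scaled CPM (sham) and 398 and 559.5 (resection, log2 fold change 1.89 ± 0.58), and Rbp2, a retinol carrier, at 111, 415 and 150.4 (sham) and 516 and 782 (resection, 1.52 ± 0.54). Apob, the scaffold of lipoproteins, had 127, 126 and 69.8 TMM-scaled CPM (sham) and 166 and 208 (resection, log2 fold change 0.81 ± 0.34) and Creb3l3, a factor that switches on apolipoprotein genes, 45.1, 29.5 and 24.5 (sham) and 55.7 and 51.8 (resection, 0.78 ± 0.31). Sham and resection values of these 4 genes did not overlap. The edgeR adjusted p of Fabp1 was 0.9999 and ran from 5.11e-06 to 1 over 16 alternatives. Slc2a2, a glucose transporter, and Cyp3a11, a drug-metabolising enzyme, were sparse, at 0, 3.51 and 1.49 TMM-scaled CPM (sham) and 10.5 and 15.3 (resection) and 0, 2.11 and 0.298 (sham) and 6.93 and 15.6 (resection), and sham 1 had no count of either. Fitted log2 fold changes of such genes (2.74 and 3.79) depend on few counts. Gata4, a factor that sets proximal identity, stood at 8.68, 18.3 and 11.04 TMM-scaled CPM (sham) and 11.1 and 12.4 (resection, log2 fold change -0.14 ± 0.36). Outside the list, Ephx2, an epoxide hydrolase, stood at 17.4, 19.7 and 10.4 TMM-scaled CPM (sham) and 41.6 and 41.7 (resection, log2 fold change 1.47 ± 0.32). Mme, the peptidase neprilysin, had 20.8, 12.6 and 6.86 TMM-scaled CPM (sham) and 31.3 and 39.1 (resection, log2 fold change 1.62 ± 0.41) and Gimd1 at 6.94, 23.9 and 13.1 (sham) and 49.7 and 37.3 (resection, 1.49 ± 0.39).

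Members carried less of these transcripts than other cells. Apoa4 in members stood at 44.4, 36.6, 25.3% of its level in other cells in sham 1 to sham 3 and at 26.6 and 24.4% in resection 1 and 2. For Fabp1 the range was 12.3 to 40.99%, and for Lct 13.3 to 35.3%. Droplets outside the members with at least 2 Cd3 genes, which T cells express, held Apoa4 at 224 to 10571 CPM and the epithelial gene Epcam at 864 to 1677 CPM, against 1527 to 1822 in other cells. Free RNA could therefore not be gauged from them, and the part of RNA from other cells in the members' proximal transcripts was not tested. The log2 fold change of Apoa4 in other cells was 3.39, and the difference between the classes was -0.37 ± 0.15 (edgeR interaction, adjusted p 0.717).

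**Figure D5:**
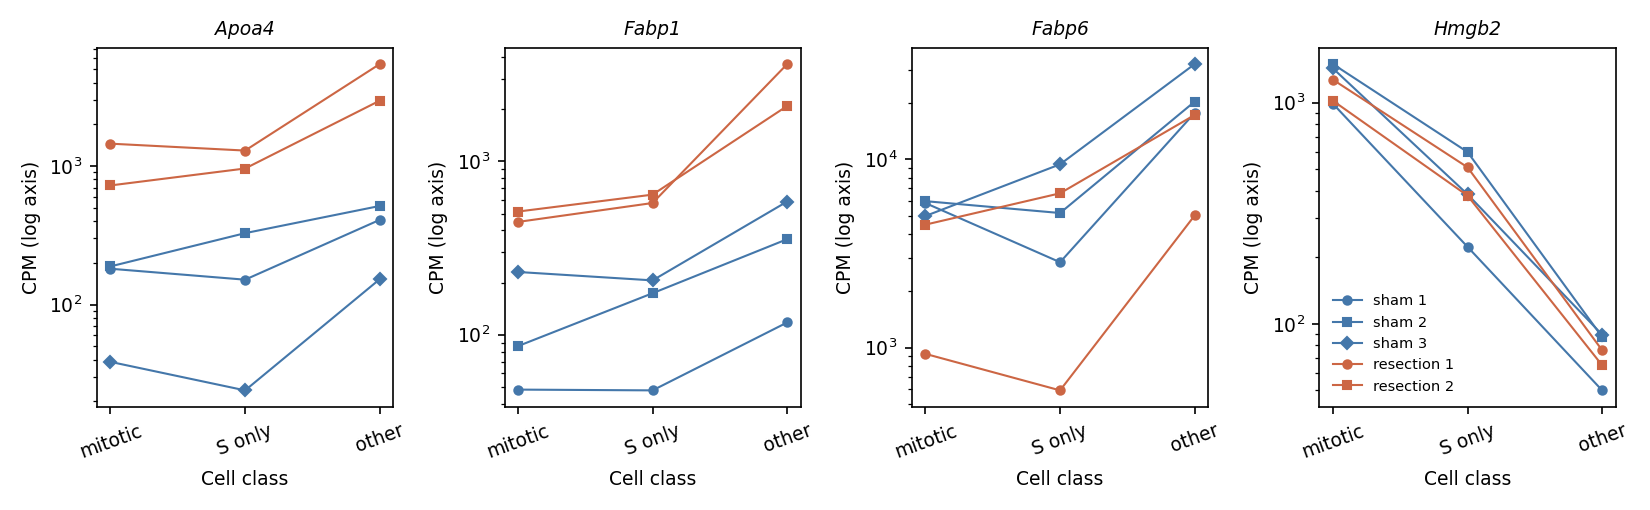
Level (CPM, log axis) of the proximal genes Apoa4 and Fabp1, the distal gene Fabp6 and the leading gene Hmgb2 in mitotic cells, S-phase-like cells outside them and other cells; each line is 1 library (blue sham, orange resection). In each class the resection values of Apoa4 and Fabp1 exceed the sham values, Fabp6 is lowest in resection 1, and Hmgb2 overlaps between groups in mitotic cells.

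Genes of the ileum showed no shared direction, with 9 of 19 above and 10 below 0 (median -0.030). Slc10a2, the ileal bile acid importer, stood at 88.5, 92.8 and 53.7 TMM-scaled CPM for sham 1 to sham 3 and 34.04 and 42.2 for resection 1 and resection 2 (log2 fold change -1.02 ± 0.33), and the groups did not overlap. Fabp6, which binds bile acids inside ileal enterocytes, was at 5268, 6569 and 5226 TMM-scaled CPM (sham) and 825 and 4903 (resection, log2 fold change -0.99 ± 0.67), and resection 1 lay far below the other 4 libraries. Without resection 1 its log2 fold change was -0.21 and without resection 2 it was -2.78. Slc51a, a subunit of the exporter that passes bile acids to the blood, had 423, 405 and 229 TMM-scaled CPM (sham) and 193 and 265 (resection, log2 fold change -0.62 ± 0.38), with overlapping groups. Fgf15, the hormone that the ileum releases in response to bile acids, had 6.94, 9.14 and 2.98 TMM-scaled CPM (sham) and 14.2 and 10.99 (resection, log2 fold change 1.16 ± 0.48). Among other genes with both resection libraries below the sham range was Gstp1, a glutathione transferase, at 46.9, 78.00 and 53.4 TMM-scaled CPM (sham) and 20.8 and 28.6 (resection, log2 fold change -1.28 ± 0.32). Pfn1, the actin-binding profilin, stood at 816, 1002 and 1237 TMM-scaled CPM (sham) and 464 and 528 (resection, log2 fold change -1.04 ± 0.36), and Areg, a ligand of the epidermal growth factor receptor, at 203, 163 and 139.9 (sham) and 98.5 and 84.2 (resection, -0.88 ± 0.31). Sham and resection did not overlap in these 3 genes. Gm21814 and 0610010K14Rik also lay below the sham range, with log2 fold changes of -1.15 and -0.83. None of these genes passed the edgeR test (adjusted p 0.9999). Over 16 alternatives the adjusted p ran from 0.00801 to 1 for Slc10a2, from 0.0102 to 1 for Gstp1 and from 0.0165 to 1 for Areg.

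Whether resection acted differently in members than in other cells of the same libraries was tested as an interaction. edgeR called none of 11172 genes (0%), and 699 (6.26%) had an unadjusted p under 0.05, 318 in the direction of members (2.85%) and 381 against it (3.41%). DESeq2 was not run on this model. Txnip, which restrains glucose uptake, had the lowest adjusted p (0.0701). Its level in members was 213, 110.3 and 173 TMM-scaled CPM for sham 1 to sham 3 and 173 and 81.6 for resection 1 and resection 2, a log2 fold change of -0.37, against 0.46 in other cells, a difference of -0.86 ± 0.13. Hk2, the hexokinase that begins glycolysis, had -0.32 in members and -2.08 in other cells (difference 1.88 ± 0.36, edgeR adjusted p 0.223). Bok, a relative of the apoptosis effectors, had -0.30 and 1.21 (-1.44 ± 0.24, 0.0872), and Id2, an inhibitor of differentiation factors, -0.067 and 1.03 (-1.15 ± 0.23, 0.31). Tfrc, the transferrin receptor, and Oxct1, a ketone-using enzyme, had differences of 0.63 and 0.75. In each of these 6 genes the fold change was larger in size in other cells than in members. Without sham 3 the difference of Hk2 was 0.997. With the library set as a term, 4 genes were called in the direction of members and 2 against it, Hk2, Txnip and Bok among them. Without resection 1 the counts were 33 and 4, and without resection 2 they were 24 and 43.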

How the data were processed

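Single-cell RNA was read with the 10x Chromium 3' method (v2 chemistry) in 3 sham and 2 resection libraries. The deposited matrices hold UMI counts per gene and cell, made by the authors with Cell Ranger per the labels, which give its version with a question mark. The submitters' processing notes name the builds mm10 and GRCm38. Filters behind the deposited cells are not given in the sources used here.

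Of 19404 deposited cells, 18955 with at least 500 genes and at most 20% mitochondrial UMIs were kept. No doublets were removed in the main results. A score from simulated doublets marked 735 cells (3.88%), 120 of them members (8.95%), and their removal was an alternative. Symbols on several rows (56 of them, among 27998 genes) were kept apart by identifier. Levels are sums per library and class in CPM, plain where members are described and scaled by TMM (trimmed mean of M-values) in the contrast. The library was the replicate. Summed counts were tested with edgeR 4.0.16 in R 4.3.3 (quasi-likelihood, filterByExpr, Benjamini-Hochberg adjusted p under 0.05), with DESeq2 1.42.0 as an alternative. Other cells leave out droplets holding at least 2 of 10 T cell genes throughout, except in the S-phase-like share outside the members. The interaction used sums of members and of these other cells, with the library as a block. Single values had exact two-sided permutation tests over libraries (Python 3.11.15, scipy 1.17.1). These were 5 in all, adjusted together. Share intervals are exact Clopper-Pearson and cover counting error only. Thinned values draw 2000 UMIs per cell without replacement. As an alternative for the log2 ratio, the contrast and the interaction, thinning decided membership only, and all other counts kept full depth.

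Genes were named by rule: the 10 rule genes, the 20 leading genes, 6 higher and 6 lower genes outside the sham range with the lowest p and a mean of at least 20 CPM, 2 genes of each list with the lowest p at that same mean, 12 genes of known importance and 3 in each direction of the interaction. Other list genes, named for their role, were chosen after their values were seen. The members and lists were chosen with earlier results of these data known. Alternatives were other rule thresholds, thinning, doublet removal, a 10% mitochondrial limit, each library left out, the library set, other size factors, no filter on low counts, DESeq2, the replicate number as a block, shares without T cell droplets and, chosen after seeing the data, members without T cell markers.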

Additional observations from a re-analysis of the deposited data

How the results depend on the processing

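With at least 5 rule genes the difference in the share of mitotic cells (resection minus sham, -0.210 points) was 0.0257 points, with at most 10% mitochondrial UMIs 3.45, and inside set A 3.11. Leaving out each library gave -1.38 (without sham 2) to 2.05 (without sham 3), and without resection 2 it was 0.932. The share of members with S-phase genes differed by 6.69 points inside set A and by -7.61 (without sham 1) to 8.26 (without sham 3) with each library left out. The log2 ratio of mitotic to S-phase-like cells (difference 0.016) was -0.10 inside set A, -0.030 inside set B and -0.28 to 0.22 with each library left out. It was -0.059 with the member rule applied at 2000 UMIs. S-phase-like cells were still counted at full depth there, so that value is not a ratio at equal depth. These 3 differences are within the spread between libraries, and the cause of their shifts was not tested. The lower goblet share after resection kept its direction under every alternative run, while the groups overlapped once cells were thinned to 2000 UMIs.

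Genes called in members numbered 0 with edgeR and with each library left out. They were 1 higher with no filter on low counts, 3 higher with DESeq2, and 6 higher and 17 lower with the replicate block, which fits only 2 pairs and shares the 3 DESeq2 genes. Of the genes named, that block also called Fabp1 (adjusted p 5.11e-06), Slc10a2 (0.00801), Gstp1 (0.0102) and Areg (0.0165). With the library set as a term these were 0.239, 0.986, 0.417 and 0.334. The numbers are shared by 2 pairs, and no label says that they pair libraries. Deviations from the group means correlated at 0.67 for sham 1 and resection 1 and at 0.56 for sham 2 and resection 2, but also at 0.48 for sham 3 and resection 2. With 2 resection libraries their deviations are exact opposites, and the sham deviations sum to 0. These 3 values therefore depend on each other and cannot decide whether libraries are paired. The interaction called 1 gene higher and 1 lower with the member rule applied at 2000 UMIs. It called 1 higher with at most 10% mitochondrial UMIs and 1 lower with at least 5 rule genes. The counts were 4 higher and 2 lower with the library set, and 33 higher and 44 lower with no filter on low counts. Leaving out each library gave 0 to 33 higher and 0 to 43 lower, with 33 and 4 without resection 1 and 24 and 43 without resection 2.

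Of 866 alternative values for 55 named genes, 814 kept direction and side of the threshold, 31 passed it and 21 reversed. With the replicate block Cdk4 was 0.069, Rrm2 0.067, Lgr5 -0.010 and Ccna2 -0.053. With at least 5 rule genes Ccna2 was -0.049 and Ccnd1 -0.012, and Ccnd1 was -0.011 without members that carry T cell markers and -0.064 with the library set. Sox9 was 0.019 with the member rule applied at 2000 UMIs and 0.044 with at most 10% mitochondrial UMIs. With each library left out Kif4 ranged from -0.17 to 0.58, Cdk4 from -1.01 to 0.057, Rrm2 from -0.51 to 0.11, Ccnd1 from -0.25 to 0.26, Lgr5 from -0.17 to 0.58, Plk1 from -0.020 to 0.29 and Ccna2 from -0.071 to 0.14. Sham 1, with 67 members, limits the depth of the sham sums.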
